A study of Mus musculus with 2 samples.

Results

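A 200 kb block on proximal mouse chromosome 17 held 1.71 times the density of read positions of its surroundings in a wild-type ChIP-seq library of osteoblasts. Over 160 kb of it, chosen after the counts were seen, the wild-type level was 2.02 times the surroundings. The mutant library of the same experiment ran through the block almost at the level of the surroundings. ChIP-seq sequences the DNA fragments recovered with an antibody from sheared chromatin. Here the antibody (sc-30486) was raised against Tnni2, the fast skeletal muscle form of troponin I, which is the inhibitory subunit of the troponin complex. The mutant library, called the del175k library here, came from primary osteoblasts, the cells that form bone, of 129sv mice homozygous for the del175k allele of Tnni2. The wild-type (WT) library came from the same cell type of 129sv wild-type littermates. The series text has 3 animals as n, no label says how they were combined, and each genotype has 1 library. Each value therefore sets 1 library against 1 other, without replicates or a p-value, and its interval covers counting error alone. Neither input DNA nor a control antibody was analysed here, so a raised level cannot be credited to the antibody, and the labelled cell type cannot be checked from reads of genomic DNA.

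The block was found from the read counts themselves. In a window of 2200 kb, from 26400001 to 28600000 on chromosome 17, 5′ ends of reads were counted once per position and strand (distinct positions) in 220 bins of 10 kb. The core is the 20 bins from 27400001 to 27600000, and the other 200 bins are its flank. Of all autosomal 10 kb bins, 234251 held a position. The core was picked from these data for its low del175k to wild-type ratio, so its ratio and its level over the flank are descriptions and are not tested. The del175k library held 3273273 aligned reads and the WT library 3305140. They had 2927228 and 2821498 distinct positions on chromosomes 1 to 19, to which counts were scaled. Ratios put del175k over wild type after this scaling, and carry exact (Clopper-Pearson) 95% limits for how the positions divide between the libraries.

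In a chromatin library, reads far from any binding site form a background. Its local density follows how many copies of the sequence the cells carry, how much of it can be aligned uniquely, and how easily the chromatin is sheared and recovered. Copies of long stretches vary between mouse strains and substrains. A protein bound at single sites gives narrow mounds of about the length of the fragments, but binding need not be of that kind. Proximal chromosome 17 is the part of the mouse genome known for the t complex, a set of inversions that suppress recombination in wild mice, and it lies on the centromere side of the major histocompatibility complex. Read positions alone do not say which of these sources sets the level of a block.

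Positions are printed as deposited, counted from 1. The series text names mouse reference 8, but the last 5′ end on chromosome 1 lies at 197192105, beyond the last gene of that chromosome in the RefSeq gene table, which is of GRCm38. From general knowledge of mouse builds, chromosome 1 is that long in mm9 but neither in mm8 nor in GRCm38, and no annotation of mm9 was used. The block could therefore not be placed on genes, exons or introns. The table can give only the order of genes in the neighbourhood. Read with a margin of 300 kb on either side of the same numbers, to allow for a shift between builds that was not measured, it lists 27 entries, of which 14 are protein-coding, 6 are long noncoding RNAs, 4 are microRNAs and 3 are pseudogenes. Some of these 27 entries may lie outside the block, and some of the block's own genes may be missing from them.

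The protein-coding genes run in this order. Itpr3 encodes a receptor that releases calcium from the endoplasmic reticulum, Uqcc2 an assembly factor of mitochondrial complex III, Ip6k3 an inositol hexakisphosphate kinase and Lemd2 a protein of the inner nuclear membrane. Between Lemd2 and the next protein-coding gene the table lists only noncoding entries, among them Gm10505, Gm35007 and the microRNA genes Mir7214, Mir7216, Mir7217 and Mir7218. Next comes Grm4, a metabotropic glutamate receptor. It is followed by Hmga1, an architectural protein of chromatin, by AI413582, and by Nudt3, a phosphohydrolase of diphosphoinositol polyphosphates. Rps10, a protein of the small ribosomal subunit, and Pacsin1, which acts in endocytosis, are followed by Spdef, an ETS transcription factor, Ilrun, Snrpc, a protein of the U1 small nuclear ribonucleoprotein, and Uhrf1bp1.

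Over the whole 200 kb core the del175k library held 372 distinct positions and the WT library 671, a ratio of 0.534 (0.470 to 0.607). The level over flank is the density of positions in the core divided by that of the flank in the same library. It was 1.03 in the del175k library (exact 95% interval 0.921 to 1.14) and 1.71 in the WT library (1.57 to 1.86). The del175k core was thus not distinguishable from its flank at this depth, and the excess lay in the WT library. The 2 strands divide the counts by which the core was picked, so nothing is read from their agreement. On the plus strand the core held 200 del175k and 332 WT positions, a ratio of 0.581 (0.485 to 0.694), and on the minus strand 172 and 339, a ratio of 0.489 (0.405 to 0.589).

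**Figure D1:**
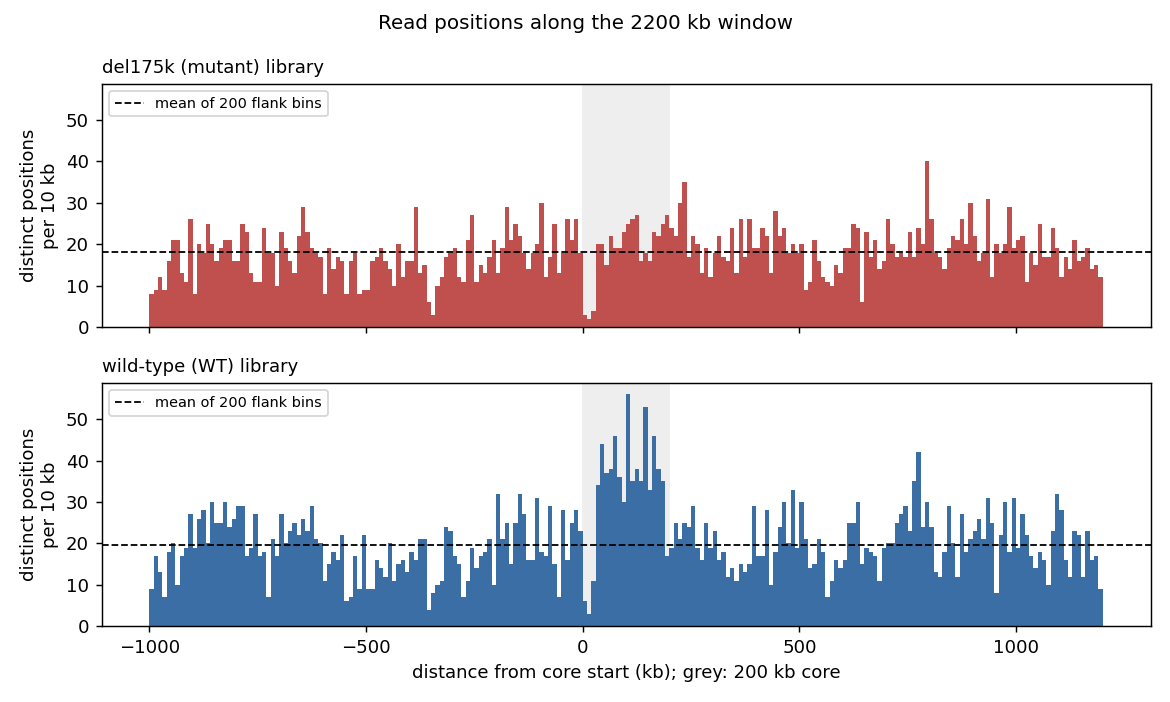
Distinct read positions per 10 kb bin (vertical axis) along the 2200 kb window, by distance from the start of the core in kb (horizontal axis), in the del175k library above and the WT library below; each bar is 1 bin of 1 library, the grey band is the 200 kb core and the dashed line the mean of the 200 flank bins. The WT library shows a plateau of 30 to 56 positions per bin over 16 adjacent core bins, the del175k library stays between 15 and 27 there, and the first 3 core bins are nearly empty in both.

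The first 30 kb of the core were sparse in both libraries. The 3 bins from 27400001 to 27430000 held 3, 2 and 4 positions in the del175k library and 6, 3 and 11 in the WT library. These are 0.166 times the flank density in the del175k library (0.0757 to 0.315) and 0.340 times in the WT library (0.207 to 0.526). The ratio of these 30 kb was 0.434 (0.174 to 0.997), also below 1, from few positions. Long stretches without a position in either library lie there, 6788 bp from 27418451, 5333 bp from 27401530 and 4629 bp from 27411095. Since the bins are sparse in both libraries, they dilute the level of the core, and the next 16 bins, from 27430001 to 27590000, were also measured alone. This dense part was chosen after the counts were seen.

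The dense part held 336 positions in the del175k library and 634 in the WT library, a ratio of 0.511 (0.446 to 0.584). Its level over flank was 1.16 in the del175k library (1.03 to 1.30) and 2.02 in the WT library (1.86 to 2.20). Against the nearest 200 kb on each side of the core it was 1.03 in the del175k library (0.903 to 1.17) and 1.90 in the WT library (1.71 to 2.11). The small del175k excess therefore depended on which flank was used, whereas the wild-type level stayed close to 2 with either.

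In order from 27430001, the 16 dense bins held 20, 20, 15, 22, 19, 19, 23, 25, 26, 27, 16, 18, 16, 23, 22 and 25 positions in the del175k library. In the same order they held 34, 44, 37, 38, 46, 36, 30, 56, 35, 38, 35, 53, 33, 46, 38 and 35 positions in the WT library. The highest del175k bin held 27 positions and the lowest wild-type bin 30. These 16 bins were chosen after the counts were seen, and they equal the best raised span of the wild-type counts. Nothing is therefore read from this gap, or from the percentile counts and runs that follow. How many other stretches of this length do the same was not counted. All 16 wild-type bins lay above 29, the 90th percentile of wild-type flank bins, and 2 of the 16 del175k bins lay above 25.1, the 90th percentile of del175k flank bins. The longest run of adjacent bins above that percentile was 2 in the del175k core and 16 in the wild-type core, against at most 2 in the flank of each library.

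Of the 20 core bins, 17 held 20 or more positions in the libraries together. In 11 of these 17 the interval of the ratio lay below 1, and in 0 above 1. Over all autosomal bins with as many positions, 2.37% had an interval below 1 and 1.79% an interval above it, and in the flank 9 of 190 bins lay below and 1 above. Nothing is read from the difference between these shares, because the core was picked for its ratio. All 16 dense bins, chosen after the counts were seen, had a ratio under 1, with a median of 0.495. In the flank, 123 of 200 bins had a ratio under 1, with a median of 0.876. The lowest ratio of a dense bin was 0.327 (0.180 to 0.568) in the bin from 27540001, with 18 del175k and 53 WT positions. The highest was 0.739 (0.410 to 1.32) in the bin from 27490001, with 23 and 30 positions.

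**Figure D2:**
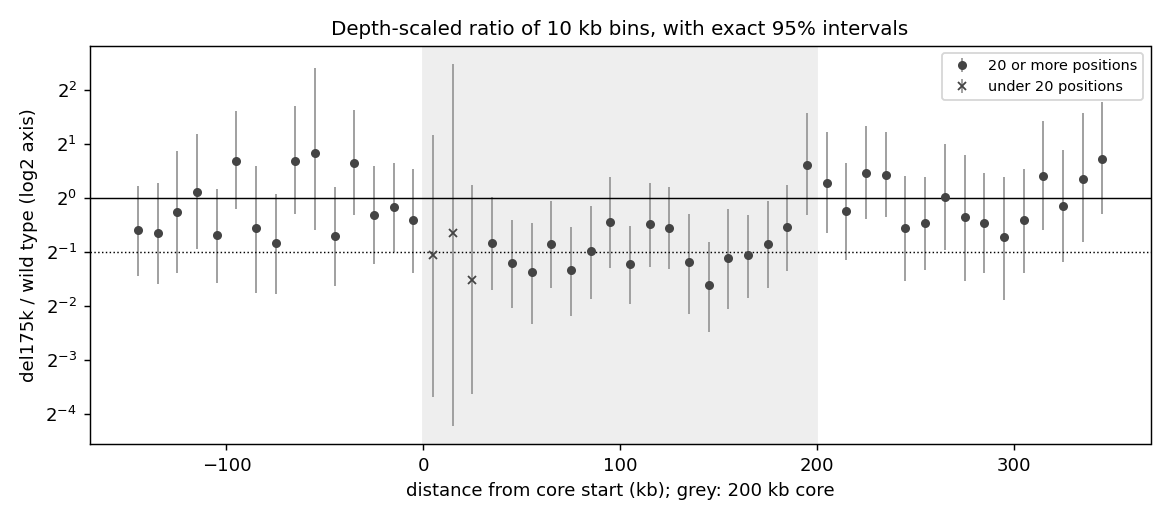
Del175k to wild-type ratio of each 10 kb bin after depth scaling (vertical axis, log2 scale) by distance from the start of the core in kb (horizontal axis), from 150 kb before the core to 150 kb after it; points are bins, crosses are bins under 20 positions, bars are exact 95% intervals, and the dotted line marks a ratio of 0.5. The 16 dense bins sit between 0.327 and 0.739, and the last core bin lies above 1.

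The level was even along the plateau, whose 16 bins were chosen after the counts were seen. In 4 consecutive stretches of 40 kb the del175k library held 77, 86, 87 and 86 positions and the WT library 153, 168, 161 and 152. The ratios, in the same order, were 0.485, 0.493, 0.521 and 0.545, and each lay within the intervals of the other stretches (lowest limit 0.364, highest 0.715). The wild-type level over flank was 1.95 (1.65 to 2.29), 2.14 (1.82 to 2.50), 2.05 (1.74 to 2.40) and 1.94 (1.64 to 2.28). The del175k level lay between 1.06 (0.838 to 1.33) and 1.20 (0.960 to 1.49).

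Evenness was also measured as the variance of bin counts over their mean, which is 1 for counts that vary by Poisson sampling alone. Over the 16 dense bins it was 0.660 in the del175k library and 1.36 in the WT library. Flank bins had higher values, 1.82 in the del175k library and 2.36 in the WT library. The dense bins leave out the sparse and last core bins, a choice made after the counts were seen. No bins were left out of the flank, so nothing is read from this difference. Over all 20 core bins the values were 3.12 and 6.08, above those of the flank, and these include the sparse 30 kb. This measure depends on the mean, which was 18.6 in the del175k core and 33.55 in the WT core. As a percentage of the mean, the SD over the core was 41.0% in the del175k library and 42.6% in the WT library. Over the dense bins it was 17.7% and 18.5%, and over the flank 31.7% and 34.7%. The log2 ratios of the dense bins had an SD of 0.35, where binomial sampling of these counts gives 0.39.

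Positions were spread over the plateau. In bins of 1 kb, the fullest of 160 held 7 positions in the del175k library and 11 in the WT library, where the means were 2.10 and 3.96. In the flank the fullest of 2000 bins held 9 in each library. The variance over mean of 1 kb bins was 1.10 in the dense part of the del175k library and 1.41 in that of the WT library, against 1.29 and 1.32 in the flank. Where counts spread beyond Poisson sampling this measure depends on the mean, so the 2 wild-type values are not a like comparison. The wild-type mean was 3.96 in the plateau and 1.96 in the flank. Of the 1 kb bins 15.6% were empty in the del175k library and 3.12% in the WT library, where Poisson counts with these means would leave 12.2% and 1.90%.

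**Figure D3:**
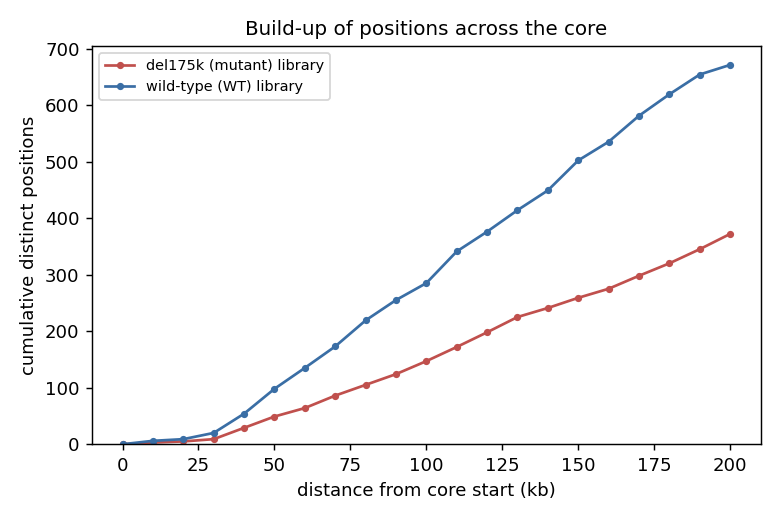
Cumulative number of distinct positions (vertical axis) across the 20 bins of the core by distance from its start in kb (horizontal axis), with 1 line per library and 1 point per bin end. Both lines are nearly flat for 30 kb and then climb at a steady rate, to 372 positions in the del175k library and 671 in the WT library, and the wild-type line flattens in the last 10 kb.

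The difference between the libraries was about as large in distinct positions as in all reads, with core ratios of 0.534 and 0.529. Second and later reads at the same position were 8.20% of all reads in the dense part of the del175k library (5.60 to 11.5%) and 12.1% in the WT library (9.78 to 14.7%). In the flank they were 6.89% (6.12 to 7.74%) in the del175k library and 10.6% (9.72 to 11.6%) in the WT library. The dense part and the flank have overlapping intervals in each library.

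The ends of the block were estimated from the split of positions between the libraries, which cancels what both share. The pair of ends with the highest binomial likelihood spanned 189023 bp, from 27396365 to 27585387. Ends within 2 log-likelihood units of the best, a range that is not a confidence interval, ran from 27383153 to 27433393 on the left, over 50241 bp. On the right they ran from 27566749 to 27591165, over 24417 bp. The left end is less well placed, and its range covers the sparse 30 kb, which hold 9 del175k and 20 WT positions to place it by. From wild-type counts alone in 10 kb bins, the best raised span was 27430001 to 27590000, at 2.04 times the rest of the window. The same fit to the del175k library also gives only the single best span. That span ran from 27210001 to 28500000 at 1.23 times the rest. It contains the block, and its ends are not near those of the block.

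At each end of the dense part, 50 kb inside was set against 50 kb outside. These ends were chosen after the counts were seen. The core was picked for a low del175k to wild-type ratio, which favours low del175k counts inside. A change at these ends in either library is therefore a description only. The left outside stretch lies beyond the sparse 30 kb and does not adjoin the inside one. On the right, the 50 kb inside 27590000 and the 50 kb beyond it held 104 and 138 positions in the del175k library, an inside over outside ratio of 0.754 (0.579 to 0.979). In the WT library they held 205 and 107, a ratio of 1.92 (1.51 to 2.44). On the left, the 50 kb from 27430001 and the 50 kb before 27400001 held 96 and 109 positions in the del175k library, a ratio of 0.881 (0.662 to 1.17). In the WT library they held 199 and 120, a ratio of 1.66 (1.32 to 2.10). In both cases the del175k counts were lower inside than outside, and on the right the interval excluded 1. The right outside stretch includes the bin from 27630001, with 35 del175k positions, 1 of the 2 fullest del175k flank bins. Nothing is read from this difference.

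The bin from 27590001, the last of the core, already lay outside the plateau. It held 27 positions in the del175k library and 17 in the WT library, a ratio of 1.53 (0.805 to 2.99). The 2 bins after the core held 24 and 22 positions in the del175k library and 19 and 25 in the WT library. The 2 bins before it held 26 and 18 in the del175k library and 28 and 23 in the WT library. None of these 5 ratios was distinguishable from 1 at this depth.

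The flank was not exactly at the autosomal ratio. Its 3619 del175k and 3922 WT positions gave a ratio of 0.889 (0.850 to 0.931), against 0.976 for chromosome 17 as a whole (0.968 to 0.984). The left flank had 0.869 (0.813 to 0.928), the right flank 0.908 (0.853 to 0.967) and the nearest 200 kb on each side 0.944 (0.856 to 1.04). Scaled to the flank in place of the autosomes, the core ratio was 0.601 (0.528 to 0.683). The 2 fullest flank bins of the del175k library, from 28190001 and 27630001, held 40 and 35 positions there and 30 and 25 in the WT library. The 2 fullest of the WT library are adjacent, from 28160001 and 28170001. They held 17 and 24 positions in the del175k library and 35 and 42 in the WT library, with ratios of 0.468 (0.246 to 0.858) and 0.551 (0.319 to 0.931).

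Among 11703 autosomal windows of 200 kb with 100 or more positions, the core had the third lowest ratio. Of these windows 0.0513%, or 6, had a ratio at or under 1/1.5. The median was 1.02, and the 1st and 99th percentiles were 0.775 and 1.45. The 2 windows below the core lie together on chromosome 17 from 30600001 to 31000000, with ratios of 0.401 and 0.448. By level over its own 1000 kb flanks, the core ranked 5206 from the top of 11613 windows in the del175k library and 162 in the WT library. At least 1.5 times the flank was reached by 2.45% of windows in the del175k library and by 3.41% in the WT library. In the WT library these were 396 windows, but the cut of 1.5 lies below the core's own level of 1.71. By its rank of 162, the core was still not alone in having such a wild-type level.

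**Figure D4:**
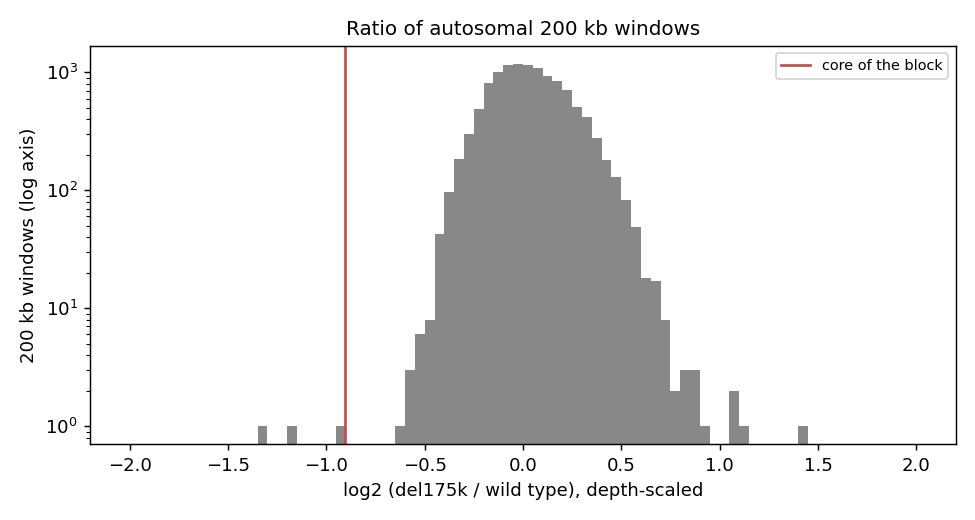
Number of autosomal 200 kb windows (vertical axis, log scale) by log2 of the depth-scaled del175k to wild-type ratio (horizontal axis), with the core marked by the vertical line. The core, at a ratio of 0.534, lies in the far left tail, beyond the 1st percentile of 0.775.

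The block was set beside a block of 500 kb further along chromosome 17 and one of 200 kb on chromosome 2, also picked for their ratios. The distal block on chromosome 17, from 30600001 to 31100000, held 867 del175k and 1890 WT positions, a ratio of 0.442 (0.408 to 0.479). Its level over flank was 0.979 in the del175k library (0.908 to 1.05) and 2.04 in the WT library (1.93 to 2.15). In 40 of its 50 bins the interval lay below 1. The proximal core of the WT library lay at 0.840 times the level of this block (exact interval 0.760 to 0.928), and that of the del175k library at 1.05 times (0.919 to 1.20). With the sparse 30 kb and the last bin left out, the level of the nearer block was 1.16 in the del175k library (1.03 to 1.30). In the WT library it was 2.02 (1.86 to 2.20). No bins were left out of the distal block, so these 2 values are not a like comparison with its levels.

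The block on chromosome 2, from 77700001 to 77900000, ran the other way. It held 1395 positions in the del175k library and 413 in the WT library, a ratio of 3.26 (2.92 to 3.64). Its level over flank was 5.55 in the del175k library (5.20 to 5.93) and 1.73 in the WT library (1.56 to 1.93). The proximal core of the del175k library lay at 0.185 times that level (0.163 to 0.210). In the WT library the 2 levels were not distinguishable, at 0.986 times (0.862 to 1.13). The variance over mean of 10 kb bins was 26.4 in the del175k library and 3.36 in the WT library in the chromosome 2 block, against 3.12 and 6.08 in the proximal core with its sparse bins. The chromosome 2 block thus had the higher value in the del175k library and the lower one in the WT library, at unlike mean counts. The distal chromosome 17 block had 1.45 and 2.98.

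**Figure D5:**
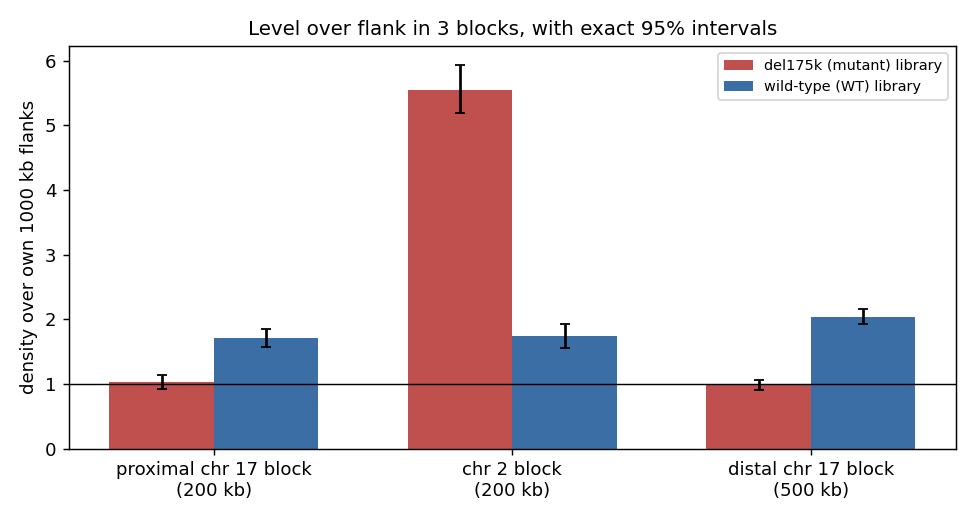
Density of distinct positions over the library's own 1000 kb flanks on either side (vertical axis) in the proximal chromosome 17 block, the chromosome 2 block and the distal chromosome 17 block (horizontal axis), with the del175k library left of the WT library in each; bars start at 0 and error bars are exact 95% intervals of counting error. Both chromosome 17 blocks are near 1 in the del175k library (1.03 and 0.979) and raised in the WT library (1.71 and 2.04), whereas the chromosome 2 block is higher in the del175k library (5.55 against 1.73).

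Whether copy number, chromatin or alignment sets the level of the block was not tested, and with 1 library per genotype the del175k allele, the animals used and the preparation of the library cannot be told apart.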

How the data were processed

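Each deposited file lists 1 aligned read of 36 bp per line. Per the submitters' processing notes the aligner was Bowtie. Its version, its settings and any read filter: not given in the sources used here. The deposited score column holds 255 throughout and was not used. All counts were made here from read positions. Reads were reduced to distinct positions, since PCR copies are not independent molecules. Levels over flank carry exact conditional binomial intervals, and comparisons of levels between blocks exact conditional odds ratios. Bins under 20 positions and windows under 100 were not called. The block, its core, the compared blocks and the measures were chosen with earlier results of these data known. Named bins are the core bins, the 2 flank bins next to each end and the 2 fullest flank bins of each library. Edge finding and interval calls were tested on simulated Poisson data. For edge finding these held a clean wild-type step, without sparse bins or the extra spread of the real flank. The test therefore does not say how well the ends are placed in the real data. Alternatives covered repeated reads, scaling, strand, flank, bin size and span. Gene names come from the GRCm38.p6 RefSeq table. Scripts ran in Python 3.11.15 with pandas 2.3.3, scipy 1.17.1, numpy 2.4.6 and, for figures, matplotlib 3.10.9.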

Additional observations from a re-analysis of the deposited data

How the results depend on the processing

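The core ratio stayed between 0.489 (minus strand alone) and 0.601 (scaled to the flank) over 8 alternatives. Core bins with an interval below 1 numbered 11 of 17, 12 of 17 with every read and 8 of 17 with scaling to the flank. They numbered 11 of 32 with 5 kb bins and 8 of 9 with 20 kb bins. The share over all autosomal bins, 2.37%, is given only for the main setting. Nothing is therefore read from the counts at the other settings. With the flank limited to the nearest 200 kb on each side, the del175k level over flank was 0.911. With medians of bins in place of means, the wild-type level was 1.87. The dense part alone, chosen after the data were seen, gave levels of 1.16 in the del175k and 2.02 in the WT library, and a variance over mean of 0.660 and 1.36. The variance over mean grew with bin size. It was 5.28 in the del175k and 9.64 in the WT library with 20 kb bins, and 3.65 in the WT library with 5 kb bins. Among 22775 windows of 100 kb, the left 100 kb of the core ranked 5 from the lowest and the right 100 kb ranked 10. Both ends stayed within their ranges under every alternative run for them. The dense part leaves out the sparse 30 kb by construction; for the other settings the cause was not tested. No paired analysis was possible because each genotype has 1 library. At this depth the interval of a single dense bin is wide, for example 0.410 to 1.32 in the bin from 27490001.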
